A study of Homo sapiens with 6 samples.

Results

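The replication-dependent histone genes measured here comprised 56 genes of 24726 probe sets, with 6 genes of linker histone H1, 13 of H2A, 15 of H2B, 12 of H3 and 10 of H4. They were taken by name, as genes whose current symbol belongs to the H1-1 to H1-6, H2AC, H2BC, H3C or H4C series (55 genes) or that carry an older histone cluster name and encode protein (1 gene, H3-4). The gene group itself was chosen by its measured difference between the IR-A and control tumours of the present series, so that the values of its members in that comparison are given as a description and without a test. The RefSeq gene table holds 71 such genes, and the other 15 were not analysed here. Each tumour grew subcutaneously in a nude mouse from Huh7, an established human hepatocellular carcinoma line. The 3 IR-A tumours came from cells stably transfected with pRcCMVi.hIR-A(GFP), which expresses human insulin receptor isoform A (IR-A) with GFP as a marker and, by its name, from a CMV promoter. The 3 control tumours came from cells with the empty vector. Cells of both groups had been selected with G418 and sorted for GFP. Nude mice lack mature T cells but keep other leukocytes, vessels and stroma, and the labels give neither a clone nor the animal of each tumour, so that the spread between tumours may be partly technical.

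Histones package DNA into nucleosomes, in which H2A, H2B, H3 and H4 form the core and H1 binds the linker DNA between cores. The replication-dependent genes are transcribed in S phase, when new DNA needs new nucleosomes, and their mRNAs end in a conserved stem-loop bound by SLBP instead of a poly(A) tail. They lie in clusters as many near-identical copies, and their transcription at histone locus bodies is organised by NPAT. Replication-independent histones, such as H3.3 and H2A.Z, come from separate genes with polyadenylated transcripts, which are also used outside S phase.

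The promoters of the members with the lowest difference in each histone type show the short elements by which each type is known. They are given 5′ to 3′, from 250 bases before to 50 bases after the start of the gene, as in the RefSeq promoter table of build GRCh38.p14. Capitals mark matches on either strand to 5 short elements. The CCAAT box was searched by the letters of its name and the TATA box as TATAA. The octamer, bound by POU2F1, was searched as ATTTGCAT. The H1 box was searched as AAACACA, and the core of the H4 element bound by HINFP as GGTCCG. Matches that overlap run together, as for the TATA boxes of opposite strands in H1-5.
H1-5 (chr6:27867539-27867838, minus strand): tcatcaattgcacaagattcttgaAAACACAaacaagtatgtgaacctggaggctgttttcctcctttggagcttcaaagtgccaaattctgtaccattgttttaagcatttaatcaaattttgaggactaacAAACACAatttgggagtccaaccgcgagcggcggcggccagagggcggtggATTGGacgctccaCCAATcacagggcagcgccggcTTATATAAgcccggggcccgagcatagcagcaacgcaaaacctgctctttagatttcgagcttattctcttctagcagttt
H2AC4 (chr6:26033569-26033868, minus strand): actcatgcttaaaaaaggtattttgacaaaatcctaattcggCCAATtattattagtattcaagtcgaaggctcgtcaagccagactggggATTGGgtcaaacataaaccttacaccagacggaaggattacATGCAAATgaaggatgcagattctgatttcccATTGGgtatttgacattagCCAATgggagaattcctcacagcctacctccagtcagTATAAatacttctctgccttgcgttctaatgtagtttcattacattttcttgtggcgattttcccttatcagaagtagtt
H2BC3 (chr6:26043664-26043963, minus strand): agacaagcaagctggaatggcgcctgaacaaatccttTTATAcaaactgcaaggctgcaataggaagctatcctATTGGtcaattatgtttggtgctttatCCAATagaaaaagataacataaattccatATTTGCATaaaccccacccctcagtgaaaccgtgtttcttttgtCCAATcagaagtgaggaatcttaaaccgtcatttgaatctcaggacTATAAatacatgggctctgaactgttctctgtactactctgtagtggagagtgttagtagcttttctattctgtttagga
H3C10 (chr6:27809801-27810100, plus strand): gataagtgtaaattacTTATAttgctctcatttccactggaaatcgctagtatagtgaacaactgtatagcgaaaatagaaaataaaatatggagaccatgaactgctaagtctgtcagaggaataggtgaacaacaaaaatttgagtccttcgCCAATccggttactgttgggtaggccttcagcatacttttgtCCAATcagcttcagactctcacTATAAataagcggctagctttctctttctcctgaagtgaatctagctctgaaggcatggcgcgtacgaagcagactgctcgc
H4C13 (chr6:27873485-27873784, minus strand): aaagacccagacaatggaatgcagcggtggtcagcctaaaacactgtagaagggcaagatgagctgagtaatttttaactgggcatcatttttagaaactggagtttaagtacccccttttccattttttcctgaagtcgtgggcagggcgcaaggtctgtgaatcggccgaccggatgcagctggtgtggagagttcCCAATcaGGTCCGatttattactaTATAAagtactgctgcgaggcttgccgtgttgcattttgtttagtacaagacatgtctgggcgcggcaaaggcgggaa
In these windows H1-5 held 2 H1 boxes, H2AC4 and H2BC3 each held 1 octamer, and H4C13 held 1 H4 core close to a CCAAT box. H3C10 held CCAAT and TATA boxes only.

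The same elements recurred over the 51 members that the promoter table holds. A CCAAT box was present in 45 of 51 (88.2%), against 35.7% of all 27305 promoters of the table, and a TATA box in 48 of 51 (94.1%), against 21.1%. The octamer was found in 21 of 51 (41.2%), against 1.80% of all promoters, and 20 of these 21 were H2A or H2B genes (9 of 12 H2A and 11 of 15 H2B). The H1 box was in 6 of 6 H1 promoters and 13.7% of the members, against 5.76% of all. The H4 core was in 7 of 8 H4 promoters and 19.6% of the members, against 11.2% of all, while a CCAAT box was in 2 of 8 H4 promoters. Among H2B genes, the 11 with the octamer had log2 differences between IR-A and control tumours from -1.56 to 0.02 (median -0.56), and the 4 without it from -1.25 to -0.76 (median -0.89). Among H2A genes, the 9 with it ran from -1.74 to 0.37 (median -1.14), and the 3 without it from -1.39 to -0.74 (median -1.13). The ranges overlapped in both types, and the H2B and H2A genes with the lowest differences, H2BC3 and H2AC4, carried the octamer.

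Values are log2 signals from RMA. A difference is the mean of the IR-A tumours minus that of the control tumours on this scale, with the moderated standard error (SE) from limma. Array medians lay between 4.66 and 4.74. The insulin receptor gene INSR, the check of the labels, had 10.65, 11.31 and 11.01 in IR-A tumours, against 8.04, 7.61 and 8.47 in control tumours, a difference of 2.95 (SE 0.26, limma adjusted p = 0.0769). The probe set does not separate the isoforms. Control tumour 2 stood apart, since its correlation over all probe sets was 0.984 to 0.989 with the IR-A tumours and 0.981 to 0.982 with the other control tumours, and group values without it are given below. The hepatoma genes AFP, with means of 12.66 in IR-A and 12.56 in control tumours, and ALB, with 13.03 in IR-A and 12.93 in control tumours, were strongly detected in both groups, as the labelled cell type requires. With 3 tumours a group, an exact permutation test of 1 value cannot go below p = 0.1.

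IR-A tumours had less signal for most replication-dependent histone genes of every type. The median log2 difference over the 56 members was -0.92, or 53.0% of the control level, against -0.03 over all probe sets. In 52 members the IR-A mean was the lower one, and in 40 of 56 (71.4%) every IR-A tumour lay below every control tumour. Over all probe sets this held for 9.45%, and the opposite separation, which no member showed, for 7.73%. The mean over the members was 5.91, 5.89 and 6.16 in the IR-A tumours and 6.99, 6.85 and 6.81 in the control tumours (5.99 ± 0.15 and 6.88 ± 0.10, SD, n = 3 each), and the groups did not overlap. Of the 100 probe sets with the lowest differences of the whole array, 18 were members, with H4C13 at rank 2 and H1-5 at rank 7 from the lowest. Nothing is read from these shares, since the group was chosen on this contrast. After adjustment over all probe sets, limma called 0 of 24726 (0%), with 7.03% lower and 7.1% higher at an unadjusted p under 0.05. In tumour RNA, fewer cells in S phase and less histone mRNA per cell cannot be told apart.

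**Figure D1:**
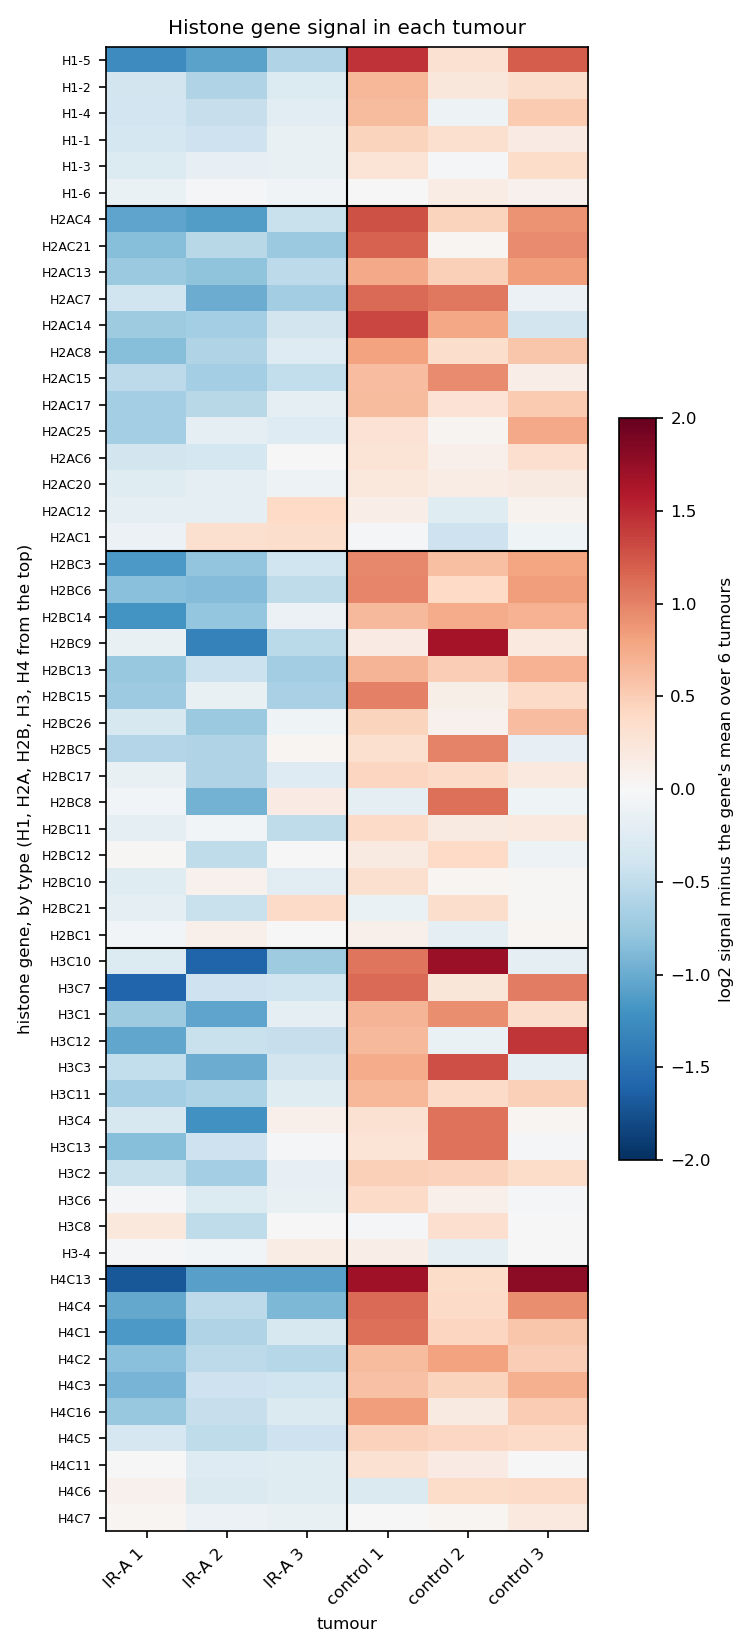
Log2 signal of each of the 56 histone genes in each tumour, minus the gene's mean over the 6 tumours, with genes in rows by type and tumours in columns. Most genes are blue (below the mean) in the 3 IR-A tumours and red in the 3 control tumours, and control tumour 2 has both the palest and the darkest control squares of many rows.

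H1 genes, which encode the linker histones, had a median difference of -0.66. Of them, 6 of 6 lay wholly below the control tumours, against 9.45% of all probe sets. H1-5 had signals of 8.13, 8.32 and 8.78 in IR-A tumours, against 10.83, 9.70 and 10.60 in control tumours, a difference of -1.96 (SE 0.32) or 25.6% of the control level. All IR-A tumours lay below the control tumours, of which tumour 2 was nearest to them. The somatic linker histones H1-2 and H1-4 stood closer to the control level. H1-2 had 9.64, 9.40 and 9.74 in IR-A tumours and 10.67, 10.24 and 10.36 in control tumours (difference -0.83, SE 0.15). H1-4 had 10.57, 10.49 and 10.75 in IR-A tumours and 11.59, 10.86 and 11.48 in control tumours (difference -0.71, SE 0.20), and control tumour 2 came within a short distance of the highest IR-A tumour. The testis gene H1-6 was dim, with 2.86, 2.97 and 2.92 in IR-A tumours and 3.01, 3.14 and 3.08 in control tumours (difference -0.16, SE 0.09), so that the separation of its groups was small. H1-1 and H1-3, outside the naming rule and given to complete the type, differed by -0.61 and -0.39.

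H2A genes had a median difference of -1.13, and 11 of 13 lay wholly below the control tumours, against 9.45% of all probe sets. H2AC4 had 7.30, 7.23 and 7.91 in IR-A tumours, against 9.63, 8.79 and 9.24 in control tumours, a difference of -1.74 (SE 0.26) or 29.9% of the control level. H2AC21, from the chromosome 1 cluster, had 7.51, 7.81 and 7.62 in IR-A tumours and 9.54, 8.40 and 9.31 in control tumours (difference -1.44, SE 0.29). In both genes the IR-A tumours were clear of the control tumours, with control tumour 2 the lowest control. H2AC13 had 8.35, 8.29 and 8.57 in IR-A tumours and 9.87, 9.58 and 9.95 in control tumours (difference -1.39, SE 0.13), with a narrow spread in both groups. The testis-specific H2AC1 was the member with the highest difference, 0.37 (SE 0.17), from 3.71, 4.15 and 4.18 in IR-A tumours and 3.79, 3.41 and 3.74 in control tumours, which overlapped. The remaining 9 genes ran from H2AC7 at -1.38 to H2AC12 at 0.02. Among them, the groups of H2AC14 almost touched, with 4.2106 in IR-A tumour 3 and 4.2111 in control tumour 3.

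H2B genes had a median difference of -0.76, with 9 of 15 wholly below the control tumours, against 9.45% of all probe sets. H2BC3 had 4.98, 5.33 and 5.72 in IR-A tumours, against 7.09, 6.73 and 6.91 in control tumours, a difference of -1.56 (SE 0.20) or 33.8% of the control level. H2BC6 had 5.25, 5.20 and 5.58 in IR-A tumours and 7.05, 6.47 and 6.92 in control tumours (difference -1.47, SE 0.18). The groups of both genes were well apart. H2BC14 had 8.12, 8.54 and 9.20 in IR-A tumours and 9.95, 10.05 and 10.00 in control tumours (difference -1.38, SE 0.26), and here the spread lay in the IR-A group. H2BC1, the testis H2B, had 3.07, 3.23 and 3.13 in IR-A tumours and 3.23, 2.96 and 3.18 in control tumours, a difference of 0.02 (SE 0.11) with overlapping groups. Of the 6 H2B genes with overlapping groups, H2BC5 (-0.76) and H2BC8 (-0.56) had wide spreads, with SE 0.32 and 0.42, while H2BC12, H2BC10, H2BC21 and H2BC1 lay between -0.32 and 0.02.

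H3 genes had a median difference of -0.99, and 7 of 12 lay wholly below the control tumours, against 9.45% of all probe sets. H3C10 had 4.93, 3.60 and 4.49 in IR-A tumours, against 6.27, 6.93 and 5.01 in control tumours, a difference of -1.73 (SE 0.54) or 30.2% of the control level. Its groups were separated by only a small step between IR-A tumour 1 and control tumour 3. H3C7 had 7.35, 8.53 and 8.54 in IR-A tumours and 10.07, 9.19 and 9.96 in control tumours (difference -1.60, SE 0.38). H3C1 had 7.24, 6.90 and 7.77 in IR-A tumours and 8.62, 8.88 and 8.30 in control tumours (difference -1.30, SE 0.25). Both genes had every IR-A tumour below every control tumour. H3-4, a testis H3 gene, had 2.80, 2.79 and 3.00 in IR-A tumours and 2.98, 2.67 and 2.84 in control tumours (difference 0.03, SE 0.12), and its groups overlapped. Within-group spread was widest in this type, with a median pooled SD of 0.44 for H3 genes, 0.29 for all members and 0.18 for all probe sets.

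H4 genes had a median difference of -1.09, with 7 of 10 wholly below the control tumours, against 9.45% of all probe sets. H4C13 had 4.91, 5.53 and 5.53 in IR-A tumours, against 8.31, 6.98 and 8.40 in control tumours, a difference of -2.58 (SE 0.40) or 16.8% of the control level, the lowest of all members. Control tumour 2 lay between the IR-A tumours and the other controls. H4C4 had 6.87, 7.37 and 7.00 in IR-A tumours and 9.03, 8.28 and 8.81 in control tumours (difference -1.63, SE 0.22). H4C1 had 5.94, 6.48 and 6.76 in IR-A tumours and 8.19, 7.51 and 7.64 in control tumours (difference -1.39, SE 0.26). Neither gene had overlapping groups. H4C7, the highest H4 gene by difference, was dim, with 2.51, 2.35 and 2.31 in IR-A tumours and 2.46, 2.51 and 2.67 in control tumours (difference -0.16, SE 0.10). H4C5, named for its small SE, had 9.43, 9.27 and 9.35 in IR-A tumours and 10.23, 10.18 and 10.16 in control tumours (difference -0.84, SE 0.09). The near-identical coding sequences of histone copies, such as those of H4 and H3, mean that a probe set may also read its neighbours. No 2 member rows held identical values, but this cannot tell whether probe sets share signal, which was not tested. Counts of members may thus include shared signal.

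**Figure D2:**
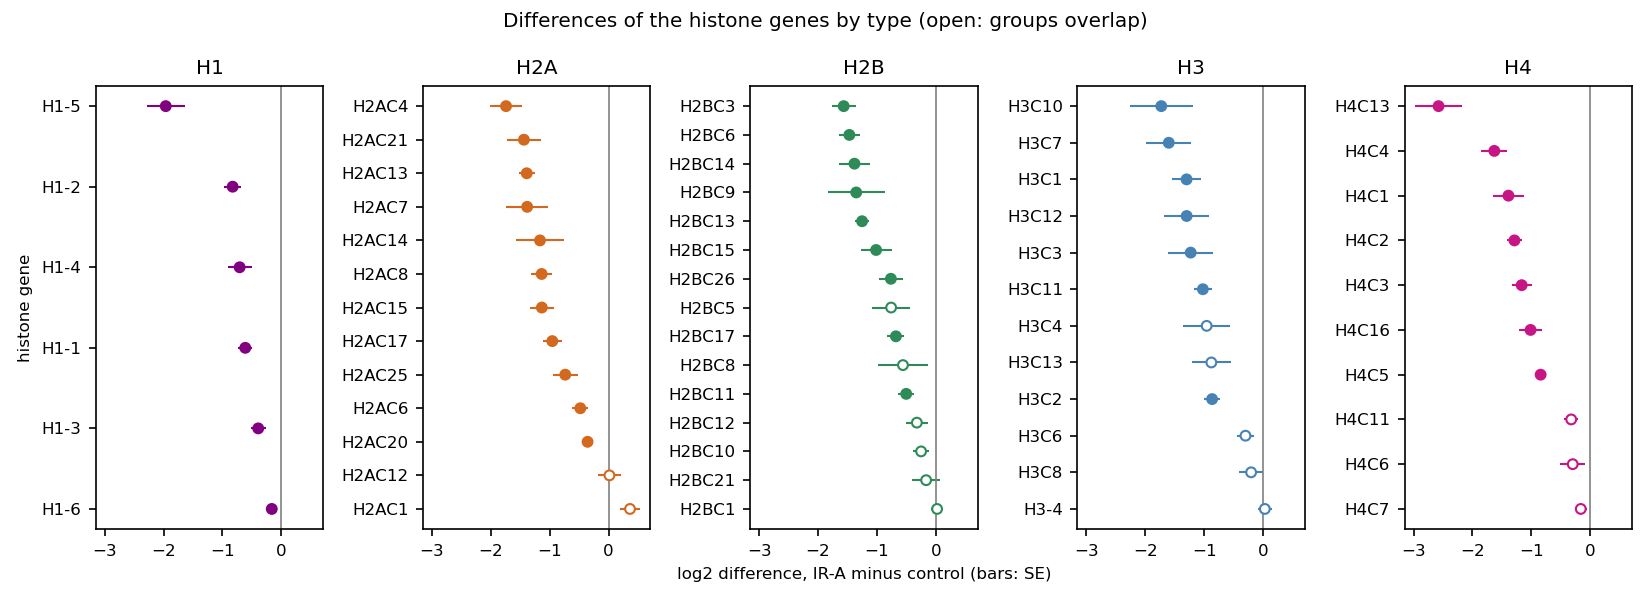
Log2 difference (IR-A minus control) of each histone gene with its SE, in 1 panel per type, from the lowest difference at the top. Filled points are genes of which every IR-A tumour lay below every control tumour (40 of 56), and open points are genes whose groups overlap.

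The type means showed the same order of groups in each type. H1 averaged 6.93 ± 0.13 in IR-A and 7.70 ± 0.22 in control tumours, H2A 6.09 ± 0.16 in IR-A and 6.97 ± 0.19 in control tumours, and H2B 5.83 ± 0.16 in IR-A and 6.63 ± 0.10 in control tumours (SD, n = 3 each). H3 averaged 5.61 ± 0.24 in IR-A and 6.55 ± 0.18 in control tumours, and H4 5.98 ± 0.11 in IR-A and 7.05 ± 0.15 in control tumours (SD, n = 3 each). No difference between types was tested.

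**Figure D3:**
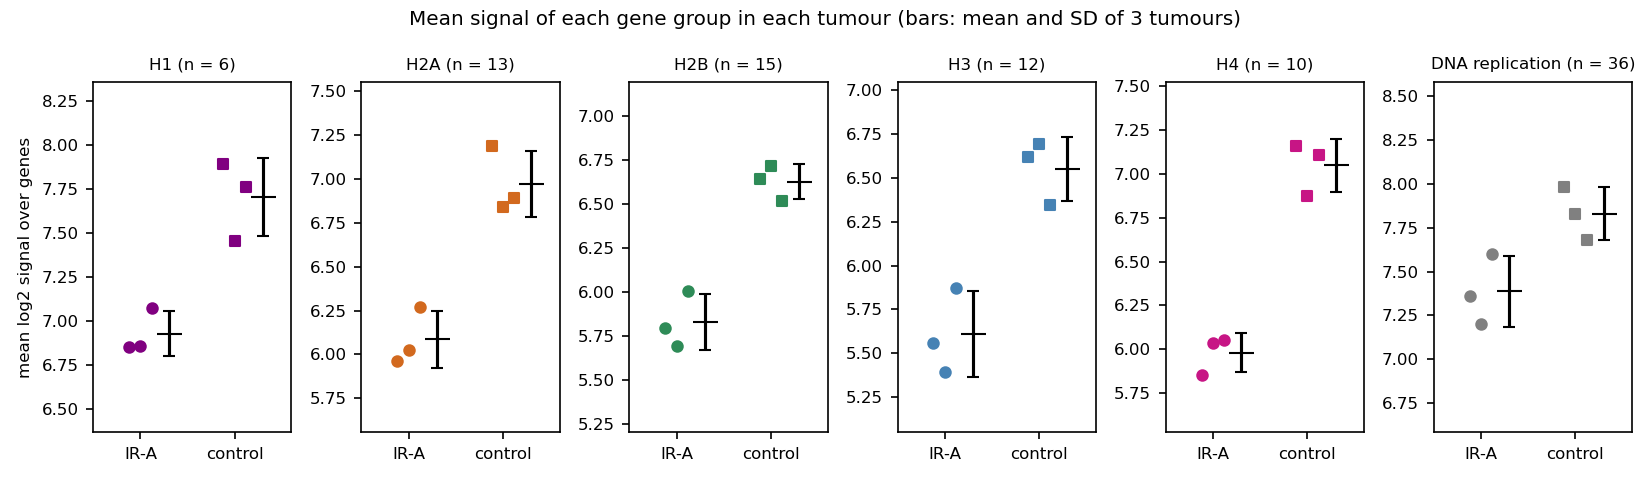
Mean log2 signal over the genes of each histone type, and over 36 DNA replication genes, in each IR-A tumour (circles, left) and control tumour (squares, right), with the mean and SD of the 3 tumours beside the points. Vertical axes span equal ranges but start at different values, since levels of different genes are not compared, and the IR-A and control points do not overlap in any histone panel.

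The tumours of each group were not alike across the histone genes. Control tumour 2 was the lowest control in 30 members and the highest in 15. It was the lowest control in 10 of 13 H2A genes, and the highest in 6 of 12 H3 genes. Against the mean of the other control tumours it ran from -1.37 for H4C13 to 1.49 for H2BC9, which had 5.49, 4.29 and 5.10 in IR-A tumours and 5.80, 7.30 and 5.83 in control tumours. Other genes with a high control tumour 2, named after their values were seen, were H3C10, H2BC8, H3C3, H3C13, H3C4 and H2BC5. IR-A tumour 3 was the highest IR-A tumour in 33 of 56 members. Without control tumour 2 the median over all members was -0.90, and the medians by type were -0.76 for H1, -1.05 for H2A, -0.66 for H2B, -0.87 for H3 and -1.19 for H4. The number of members wholly below the control tumours was 40, a count that cannot fall when a tumour is left out. The share of all probe sets wholly below came to 22.5%. H4C13 then differed by -3.03, H1-5 by -2.30 and H3C10 by -1.30. The near-zero differences of the testis genes H2BC1 and H3-4 turned to -0.06 and -0.05.

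By mean signal over all 6 tumours, the 37 members at or above the median probe set (4.71) had a median difference of -1.14. Of them, 31 lay wholly below the control tumours, against 12.5% of all probe sets in that range. The 19 dimmer members had a median of -0.32, and 9 lay wholly below, against 6.39% of the dimmer probe sets. H3C10, H3C12 and H4C2 were in the brighter set with IR-A means below 4.71, through their control tumours. The order did not hold gene by gene, since H2AC20 (-0.36), H2AC6 (-0.48) and H2BC12 (-0.32) were among the brighter members and H2AC7 (-1.38) and H2AC14 (-1.16) among the dimmer. RMA compresses differences of dim probe sets, so a small difference there is not evidence of an equal transcript level. All 4 genes known for expression in testis (H1-6, H2AC1, H2BC1 and H3-4) were among the dim ones, with a median of 0.03, against -0.98 for the other 52 members.

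Some replication-dependent genes are known to give polyadenylated transcripts as well, which persist in cells outside S phase. Of these, 5 were measured (H1-2, H2AC6, H2BC5, H2BC12 and H2BC21). Their median difference was -0.48, with 2 of 5 not overlapping, against -1.01 and 38 of 51 for the other members. Over all probe sets, 9.45% lay wholly below the control tumours. H1-2, given above, differed by -0.83, H2BC5 by -0.76 and H2BC12 by -0.32. H2AC6 had 10.68, 10.69 and 11.05 in IR-A tumours and 11.32, 11.15 and 11.38 in control tumours, a difference of -0.48 (SE 0.13). H2BC21 had 6.57, 6.29 and 7.12 in IR-A tumours and 6.60, 7.10 and 6.77 in control tumours, a difference of -0.16 (SE 0.23), with IR-A tumour 3 above all control tumours. The list is short, and the difference between the 2 sets of members was not tested.

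By position, the median difference was below 0 in every cluster, where a cluster is a run of members less than 300000 bases apart. The largest cluster, on chromosome 6 from H2AC1 to H2BC10, held 31 members, with a median of -0.84. Of them, 21 lay wholly below the control tumours, against 9.45% of all probe sets. The third cluster in order on that chromosome, from H2BC13 to H2BC17, held 14 members, with a median of -1.21 and 13 without overlap, and includes H4C13, H1-5 and H3C10. Between them, the 3 genes from H2BC11 to H2AC12 had a median of -0.32. On chromosome 1, the 4 genes from H3C13 to H2AC21 had a median of -0.62, and the 3 genes from H3-4 to H2BC26 had -0.74. H4C16, alone on chromosome 12, had 8.63, 8.92 and 9.09 in IR-A tumours and 10.22, 9.57 and 9.89 in control tumours, a difference of -1.01 (SE 0.20).

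The non-histone genes that lie among the chromosome 6 clusters had a median difference near 0, with 0.01 over the 28 measured, 0.07 without control tumour 2 and -0.01 without control tumour 3. Of these, 2 (7.14%) lay wholly below the control tumours and 2 wholly above, near the 9.45% and 7.73% of all probe sets. Limma's adjusted p was under 0.05 for 0 of 28. At limma's unadjusted p under 0.05, 2 were lower and 4 higher, against 7.03% and 7.1% of all probe sets. MIR3143, a miRNA gene, had 7.18, 7.22 and 7.48 in IR-A tumours and 8.21, 8.17 and 7.94 in control tumours (difference -0.82, SE 0.13, limma adjusted p = 0.129). SLC17A4, an organic anion transporter, had 4.85, 4.48 and 4.02 in IR-A tumours and 3.63, 3.73 and 3.46 in control tumours (difference 0.84, SE 0.21, limma adjusted p = 0.184).

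**Figure D4:**
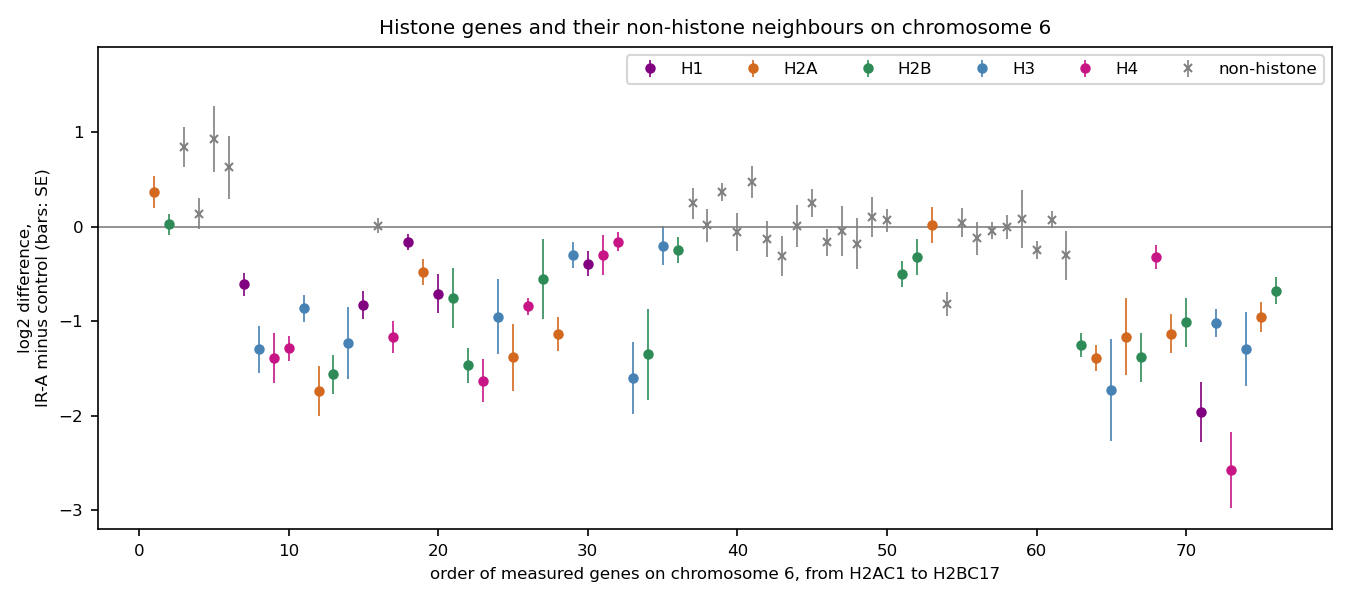
Log2 difference (IR-A minus control, bars SE) of histone genes (coloured by type) and the non-histone genes among them (crosses) on chromosome 6, in the order of the genes and not to genomic scale. Most histone genes lie below 0, while the 28 non-histone genes scatter around a median of 0.01.

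Many H2A and H2B genes form divergent pairs that share 1 short promoter region. Pairs were sought only among the 51 members that the promoter table holds, so that a pair with a partner outside it, such as H2AC12, could not be found. Among the 51, 9 divergent pairs had starts within 1000 bases, 8 of them H2A with H2B and 1 H2BC9 with H3C7. Their partners differed from each other by 0.03 to 0.58, with a median gap of 0.22. Both partners were without overlap in 6 of 9 pairs, for H2AC14 only narrowly. Of all single probe sets, 9.45% lay wholly below the control tumours. H2AC13 and H2BC13 differed between tumour groups by -1.39 and -1.25, and H2AC25 and H2BC26, the closest pair in value, by -0.74 and -0.76. The widest gap was between H2AC8 (-1.14, SE 0.18) and H2BC8 (-0.56, SE 0.42). The H2A partner was the lower one in 5 of 8 pairs. Partners share a promoter and are not independent points.

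Replication-independent histones had no common direction. The 11 measured of 12 had a median difference of -0.02, of 0.05 without control tumour 2 and of 0.12 without control tumour 3. Limma's adjusted p was under 0.05 for 0 of 11. At limma's unadjusted p under 0.05 there were 2 lower and 2 higher, against 7.03% and 7.1% of all probe sets. H2AX, the variant phosphorylated at DNA breaks, whose gene gives both stem-loop and polyadenylated mRNA, had 7.69, 7.49 and 7.63 in IR-A tumours and 8.42, 8.14 and 8.26 in control tumours (difference -0.67, SE 0.11, limma adjusted p = 0.131). H2AZ2, an H2A.Z gene, had 9.27, 9.12 and 9.34 in IR-A tumours and 8.57, 9.01 and 8.66 in control tumours (difference 0.50, SE 0.14, limma adjusted p = 0.217). The groups did not overlap for either gene, in opposite directions.

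The factors that transcribe histone genes and process their mRNA had a median difference of -0.09 over 23 measured of 24. This median was -0.01 without control tumour 2 and -0.13 without control tumour 3. Limma's adjusted p was under 0.05 for 0 of 23. At limma's unadjusted p under 0.05, 4 were lower and 0 higher, against 7.03% and 7.1% of all probe sets. Wholly below the control tumours lay 6 (26.1%), against 9.45% of all probe sets. E2F1, a transcription factor of S phase entry, had 6.56, 6.19 and 6.73 in IR-A tumours and 6.97, 7.26 and 7.18 in control tumours (difference -0.64, SE 0.16, limma adjusted p = 0.187). NCBP1, the large subunit of the nuclear cap-binding complex, had 8.24, 8.21 and 8.58 in IR-A tumours and 9.18, 9.13 and 8.65 in control tumours (difference -0.64, SE 0.18, limma adjusted p = 0.212). Named for their roles outside the rule, SLBP differed by -0.29 (SE 0.13) and NPAT by -0.09 (SE 0.16), both smaller than the median difference of the histone genes.

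Histone chaperones and importers, which carry new histones to DNA, had a median of -0.15 over 22 measured of 23, and of -0.30 without control tumour 3. Limma's adjusted p was under 0.05 for 0 of 22. At limma's unadjusted p under 0.05, 8 were lower and 0 higher, against 7.03% and 7.1% of all probe sets. NAP1L1, a chaperone of H2A and H2B, had 6.42, 6.42 and 6.46 in IR-A tumours and 6.97, 6.99 and 6.77 in control tumours (difference -0.48, SE 0.10, limma adjusted p = 0.150). SSRP1, a subunit of the FACT complex, had 8.65, 8.83 and 8.87 in IR-A tumours and 9.52, 9.18 and 9.19 in control tumours (difference -0.51, SE 0.13, limma adjusted p = 0.186). Both genes had separate groups.

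DNA replication genes, active in the same phase, had a median difference of -0.49 over the 36 of the list, which were all measured. In 33 of them the IR-A mean was the lower one, and 17 (47.2%) lay wholly below the control tumours and 0 above. Over all probe sets, 9.45% lay wholly below and 7.73% wholly above. Limma's adjusted p was under 0.05 for 0 of 36. At limma's unadjusted p under 0.05, 19 were lower and 0 higher, against 7.03% and 7.1% of all probe sets. PRIM1, the catalytic primase subunit, had 8.30, 8.24 and 8.35 in IR-A tumours and 9.29, 8.93 and 9.03 in control tumours (difference -0.79, SE 0.12, limma adjusted p = 0.126). CDT1, a licensing factor of replication origins, had 7.12, 6.96 and 7.09 in IR-A tumours and 8.19, 7.52 and 8.16 in control tumours (difference -0.90, SE 0.19, limma adjusted p = 0.155). Without control tumour 2, where limma called 308 of all probe sets, both passed, with adjusted p = 0.0452 for PRIM1 and 0.0261 for CDT1 in limma. With each tumour left out in turn, limma's adjusted p reached up to 0.477 for both genes. The median of the list then ran from -0.57 to -0.33. The list averaged 7.36, 7.20 and 7.60 in IR-A tumours and 7.98, 7.83 and 7.68 in control tumours, so that IR-A tumour 3, the highest IR-A tumour in most histone genes, was also the highest here. The part of S phase activity in the histone values was not tested.

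**Figure D5:**
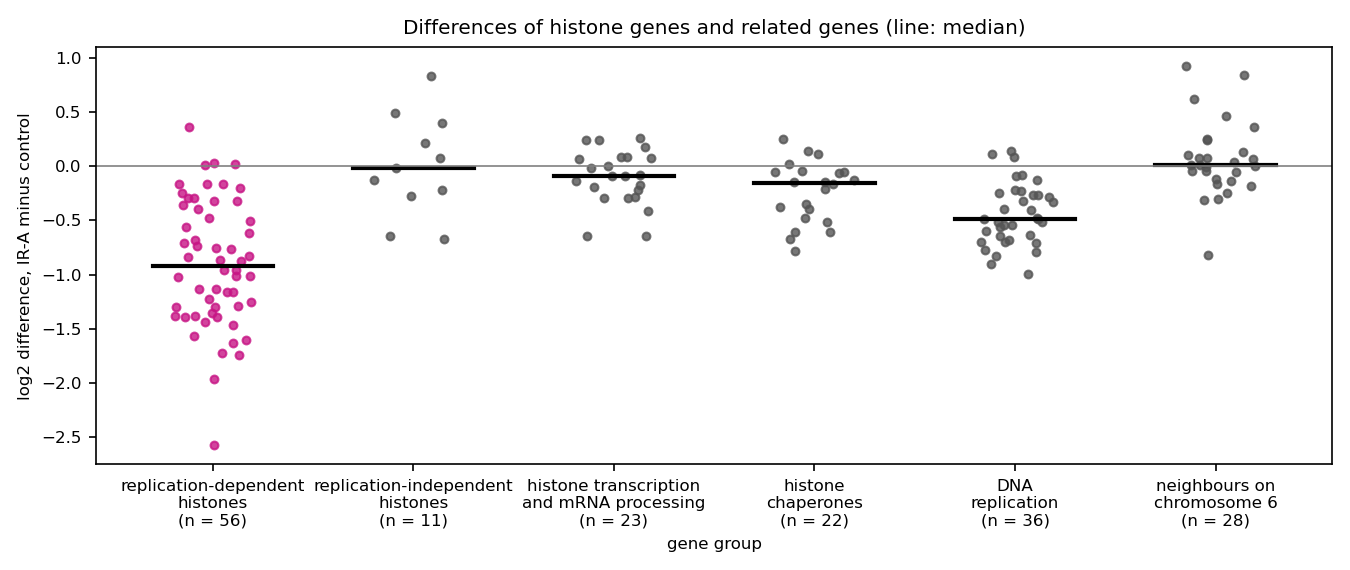
Log2 difference (IR-A minus control) of each gene in 6 groups, with the median as a line and points spread sideways for visibility. The 56 histone genes reach the lowest values (median -0.92), the 36 DNA replication genes lie mostly below 0 (median -0.49), and the other groups have medians between -0.15 and 0.01.

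Some markers of hepatocytes and of other cell types lay wholly above the control tumours in the IR-A group. Fibroblast markers averaged 4.86 ± 0.10 in IR-A and 4.39 ± 0.12 in control tumours (SD, n = 3 each), and 3 of 6 lay wholly above the control tumours (LUM by 1.26, COL1A2 by 0.83 and COL1A1 by 0.40), while DCN was dim in both groups (2.56 in IR-A and 2.57 in control tumours). Hepatocyte and hepatoma markers averaged 11.98 ± 0.03 in IR-A and 11.77 ± 0.14 in control tumours (SD, n = 3 each), and 5 of 10 lay wholly above. Leukocyte markers averaged 6.56 to 6.66 in IR-A and 6.43 to 6.50 in control tumours, with PTPRC and CD3E dim in both groups and 1 of 5, CD68, wholly above (by 0.62). Endothelial markers averaged 4.15 to 4.23 in IR-A and 4.02 to 4.16 in control tumours, with 1 of 4, PECAM1, wholly above (by 0.51). The other leukocyte and endothelial markers overlapped between groups. Over all probe sets, 7.73% lay wholly above the control tumours. No marker passed limma's adjusted threshold (lowest adjusted p = 0.106, for LUM). How much of the histone values these shifts account for was not tested, nor which cells gave the signal of each marker. The arrays carry human probes, so mouse RNA is read only where it cross-hybridises.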

How the data were processed

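Total RNA of 6 tumours was labelled with a whole-transcript kit and hybridised to Affymetrix arrays, per the labels' protocols. The authors deposited a log2 signal for each probe set in each tumour. The submitters' processing notes name RMA and Partek. For the array model, the probe set definition and the genome build, the sources used here give nothing, and the log2 scale was read from the values, which ran from 1.91 to 13.2. Probe sets are Entrez gene IDs. GEO's annotation names 23934 of 24726, and 24539 IDs matched the RefSeq table of GRCh38.p14, used for current symbols, gene order and promoters.

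IR-A was compared with control with lmFit and eBayes of limma 3.58.1 under R 4.3.3, without filter or trend. P-values were adjusted by Benjamini-Hochberg over the 24726 probe sets, and 0.05 was the threshold. The script was tested on simulated data. Members are described by their values, medians and counts, without a test. Clusters are members of 1 chromosome less than 300000 bases apart.

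The members and lists were chosen with earlier results of these data known. Named were INSR, the 3 lowest and 1 highest members per type by difference, and the 2 genes of smallest p per related list; other members and list genes are named for their place in a range, pair or role, after their values were seen. Alternatives were quantile normalization, median centring, no dim probe sets, an intensity trend, a block for replicate number, array weights, and each tumour left out. Figures used matplotlib 3.10.9 in Python 3.11.15.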

Additional observations from a re-analysis of the deposited data

How the results depend on the processing

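With 3 tumours a group, precision is limited by their number, and signal near the dim end limits what a small difference shows. The number of probe sets called by limma (0 with all tumours) was 14 without the dimmest 25%, 20 without the dimmest 50%, 11 with array weights, and 0 to 308 with each tumour left out in turn, the 308 being without control tumour 2. The median of all members was -1.08 and -1.14 without the dimmest 25% and 50% of probe sets, which leaves fewer members, and -1.04 to -0.83 with each tumour left out. The median was -1.30 for H3 without the dimmest 50% and -1.29 for H4 without the dimmest 25% or 50%. With each tumour left out it ran from -1.17 to -0.88 for H2A, -0.91 to -0.60 for H2B, -1.20 to -0.87 for H3, -1.19 to -0.94 for H4, -0.76 to -0.56 for H1, -0.30 to -0.13 for the chaperones and -0.10 to 0.12 for replication-independent histones, where the sign turned; the cause was not tested. Members wholly below the control tumours numbered 41 of 56 with quantile normalization and 39 of 56 with median centring, beside the same share of all probe sets (10.1% and 9.64%). Without the dimmest 25% and 50%, which leaves fewer members, they numbered 38 of 46 and 31 of 37 (10.3% and 12.5%). With a tumour left out they numbered 40 to 46 of 56 (12.1% to 22.5%). Leaving a tumour out cannot lower this count, so that range does not measure its stability. INSR, at limma's adjusted p = 0.0769 with all tumours and probe sets, passed at 0.0261 when control tumour 2 was left out, at 0.0480 under array weights, and at 0.0471 or 0.0350 when the dimmest 25% or 50% were. Deviations of IR-A and control tumours of the same number correlated by -0.29, -0.36 and 0.02, and those of unlike numbers by -0.32 to 0.50. With 3 tumours a group, these values cannot tell whether the numbers pair the tumours. With the replicate block 0 probe sets were called. Each block holds 1 tumour of each group, so the block cannot change a group difference, and the medians stayed the same (all members -0.92).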
